A study of Mus musculus with 10 samples.

Results

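Aldehyde dehydrogenases are enzymes that use NAD+ or NADP+ to oxidise aldehydes to carboxylic acids. Of the 14812 gene rows measured in single mouse hepatocytes, 10 rows of this family were taken by name: aldh1a1, aldh1b1, aldh1l1, aldh2, aldh3a2, aldh4a1, aldh6a1, aldh7a1, aldh8a1 and aldh9a1, as the tables write them. A further 7 rows of the family were used for comparison only. The cells came from C57BL/6 male mice, 3 months old, on ordinary chow without restriction and anaesthetised with ketamine and xylazine. Their hepatocytes, the main cells of the liver parenchyma, were freed by perfusing the liver with collagenase, purified on Percoll and made into 10x Chromium 3' libraries. All groups shared this genotype and handling and differed in zeitgeber time (ZT), the hour of the light cycle counted from lights on: ZT0 and ZT12 had 3 libraries each, ZT6 and ZT18 had 2, and a letter tells the libraries of one time apart. The library was the replicate, and the labels do not give the number of mice per library, so p-values measure the spread between these libraries only.

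The liver is built of lobules in which blood enters at portal vessels and drains at a central vein, and hepatocytes along that path carry out different parts of metabolism. In hepatocytes the family handles acetaldehyde from ethanol, retinal from vitamin A and long-chain aldehydes from lipids. It also takes the aldehyde steps in the breakdown of proline, valine, lysine and tryptophan, and Aldh1l1 acts on formyltetrahydrofolate. Some members sit in mitochondria, others in the cytosol or on the endoplasmic reticulum. The questions put to the family were whether its members differ along the lobule, whether they follow the time of day, and whether one depends on the other. The family was chosen with opposite differences of Aldh1b1 and Aldh3a2 along the lobule already known, so the first answer was partly set beforehand.

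The 2 members with the largest and opposite differences along the lobule were Aldh1b1 and Aldh3a2, and the stretches upstream of their starts are shown for that reason. Each runs 5′ to 3′ on the strand of its gene over the 250 bases before the RefSeq start (GRCm38.p6), with any searched motif in capitals. Aldh1b1 lies on the forward strand of chromosome 4 (chr4:45799022-45804604 in GENCODE M21), and the stretch is chr4:45798772-45799021. Aldh3a2 lies on the reverse strand of chromosome 11 (chr11:61223417-61267464), and the stretch is chr11:61267187-61267436, inside the longer GENCODE gene model.
Aldh1b1: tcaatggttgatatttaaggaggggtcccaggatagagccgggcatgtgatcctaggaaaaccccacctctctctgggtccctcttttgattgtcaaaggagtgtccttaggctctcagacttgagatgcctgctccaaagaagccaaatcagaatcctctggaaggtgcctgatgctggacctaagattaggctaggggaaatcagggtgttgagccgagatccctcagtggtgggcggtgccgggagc
Aldh3a2: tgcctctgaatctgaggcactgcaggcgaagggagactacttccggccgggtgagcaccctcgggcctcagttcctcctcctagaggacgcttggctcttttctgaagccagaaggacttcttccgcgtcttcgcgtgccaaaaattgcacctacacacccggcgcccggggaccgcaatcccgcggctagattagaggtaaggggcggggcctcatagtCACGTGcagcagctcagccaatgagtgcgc

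A RefSeq promoter of 300 bases, 250 before the start and 50 after it, was used for 8 of the 10 members, with 2 entries each for Aldh1a1 and Aldh6a1. Those of Aldh2 and Aldh7a1 were not used here. These were searched on both strands for the E-box CACGTG bound by clock proteins, the TCF/LEF motif ATCAAAG, the D-box and the ROR element, the last pair searched by their usual consensus. The single match was the E-box of Aldh3a2, which starts 30 bases before the start, that is at position -30, and is the run in capitals above. An E-box was present in 7.15% of 32851 mouse promoters of that length, the TCF/LEF motif in 3.73%, the D-box in 1.59% and the ROR element in 0.384%. The upstream stretch of Aldh3a2 held 18 CG pairs and 61.2% G or C, that of Aldh1b1 4 CG pairs and 53.2%. The median over all upstream stretches was 52.4% G or C.

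The libraries held 18378 cells with 1454623 to 7144803 unique molecular identifiers (UMIs, counts of distinct tagged molecules) per library and 1588 to 2662 per median cell. Albumin alone gave 1348985 UMIs, and markers of other cell types were far lower in all libraries together. The endothelial genes Pecam1 and Kdr gave 190 and 59 UMIs, the stellate gene Dcn 172, the macrophage genes Cd5l and Clec4f 78 and 0, the leukocyte gene Ptprc 15, and the bile duct genes Krt19, Epcam, Sox9 and Spp1 2, 3, 565 and 987. The summed erythroid list, 5 of its 7 genes being in the tables, was at 361 CPM (counts scaled to the same library total) in ZT18 replicate B, at 99.0 CPM in ZT18 replicate A and at 72.2 to 108 CPM at the other times. ZT12 replicates A and C were the shallowest libraries together with ZT6 replicate B. Cells of each library were ordered along the lobule by a score of 8 periportal and 7 pericentral landmark genes, none of them an aldehyde dehydrogenase, and the parts at both ends, each holding 1 in 3 of the cells, are called the pericentral and periportal zones. They held 237 to 954 and 236 to 953 cells per library. Of 10 periportal and 10 pericentral genes listed for a check outside the landmarks, 10 and 10 were called in the listed direction.

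Along the lobule the family split. Aldh1b1 and Aldh1l1 were higher in the periportal zone, Aldh3a2, Aldh1a1, Aldh2, Aldh4a1 and Aldh6a1 were higher in the pericentral zone, and Aldh7a1, Aldh8a1 and Aldh9a1 did not pass the test. The differences ran from a 30.0-fold pericentral to a 27.6-fold periportal excess. With the library as a block in edgeR's quasi-likelihood fit, and a threshold of 0.05 on Benjamini-Hochberg adjusted p, 7 of the 10 members were called, 2 higher and 5 lower in the periportal zone. Among all 8929 genes tested, 24.8% were called, 12% higher and 12.8% lower. Because members were chosen with zone differences known, their count beside this share is a description and not a test of the family. The median log2 difference was -0.14 over the 10 members and -0.0039 over all genes. Scaling by library size alone, without TMM factors, moved the median of all genes to -0.10 and the periportal share of all calls from 48.4% to 28.6%, so the differences are relative to the median gene. The split of the called members was 2 and 5 under that scaling too.

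**Figure D1:**
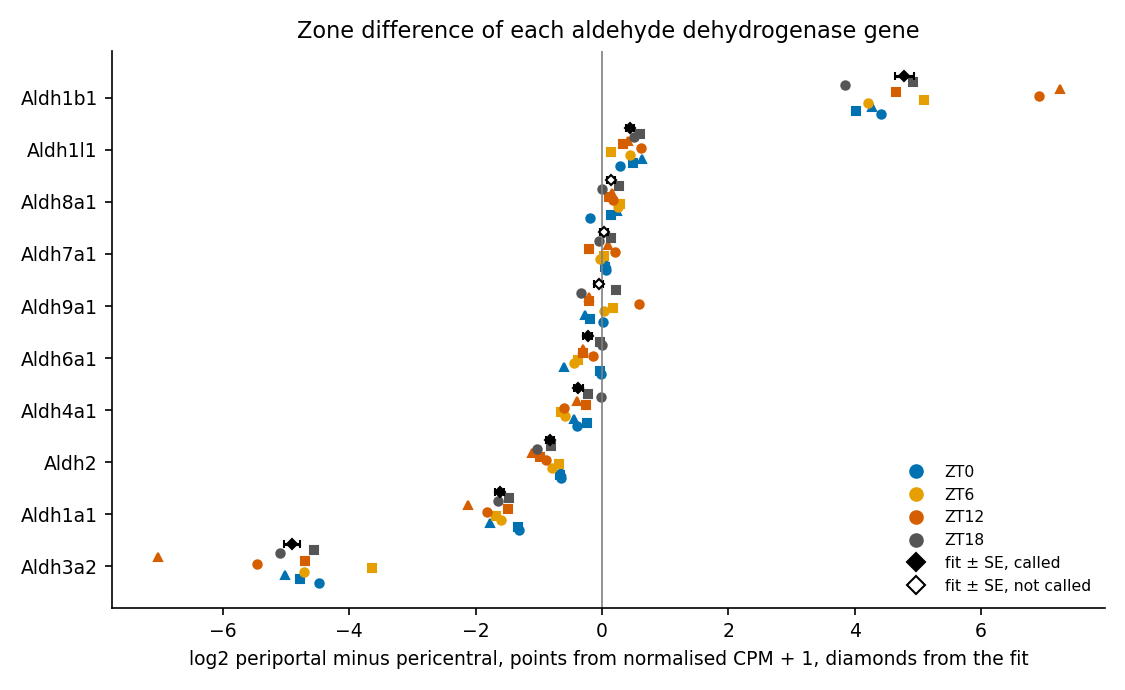
Log2 difference between the periportal and pericentral zones (x axis) for each member (y axis). Points are the 10 libraries, coloured by time, with circles, squares and triangles for letters A, B and C, and diamonds are the fitted difference with its SE. Aldh1b1 lies wholly to the right, between 3.85 and 7.25, and Aldh3a2 wholly to the left, between -7.03 and -3.65.

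Among the enzymes of acetaldehyde and retinal, Aldh1b1 stood apart. Aldh1b1, a mitochondrial enzyme that acts on acetaldehyde and related aldehydes, had 0, 2.74 and 6.67 CPM as lowest, median and highest of the 10 libraries in the pericentral zone, and 69.6, 100 and 151 CPM in the periportal zone. The zones did not overlap, and the lowest periportal library was above the highest pericentral one. Its log2 difference was 4.79 ± 0.15 (SE; edgeR adjusted p = 1.2e-22; n = 10 libraries), higher in the periportal zone in 10 of 10. Only 53 UMIs stood behind the pericentral values and 1441 behind the periportal ones. The SE was derived from the F statistic and may be too small for so few counts. ZT12 replicates A and C had no pericentral UMI, where 3 counts would be 6.53 and 4.71 CPM, and the pericentral level is the mean of very few counts.

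A summed list of bile duct markers was also higher in the periportal zone. The summed cholangiocyte list, with 5 of its 6 genes in the tables, was at 14.1 to 214 CPM in the periportal zone and 1.57 to 22.7 CPM in the pericentral zone. Of its genes, Krt19 had 2, Krt7 3 and Epcam 3 UMIs in all 18378 cells, too few to place along the lobule. The sum rested almost wholly on Spp1, with 987 UMIs, and Sox9, with 565. Aldh1b1 itself had 1852 UMIs, and the part of bile duct cells in its difference was not tested.

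Aldh2, the mitochondrial enzyme known for clearing acetaldehyde after ethanol, leaned the other way. Its pericentral levels were 646, 1035 and 1726 CPM (lowest, median, highest) and its periportal levels 357, 588 and 936 CPM. The ranges of the zones overlapped between libraries, yet within each library the pericentral zone was higher, in 10 of 10. The log2 difference was -0.82 ± 0.06 (SE; edgeR adjusted p = 1.1e-12). The gene lies at chr5:121566027-121593824.

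Aldh1a1, the cytosolic enzyme that makes retinoic acid from retinal, was measured at 962, 1404 and 2425 CPM in the pericentral zone and at 316, 438 and 686 CPM in the periportal zone. The zones did not overlap, with every pericentral library above every periportal one. The log2 difference was -1.62 ± 0.07 (SE; edgeR adjusted p = 3.8e-19), a 3.07-fold pericentral excess in 10 of 10 libraries. The gene lies at chr19:20492715-20643465.

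Aldh3a2, the fatty aldehyde dehydrogenase of the endoplasmic reticulum whose loss causes Sjögren-Larsson syndrome in people, had the steepest pericentral pattern. It was at 136, 273 and 305 CPM in the pericentral zone and at 1.34, 6.56 and 20.8 CPM in the periportal zone, resting on 3455 and 110 UMIs. The zones did not overlap, and the pericentral zone was higher in 10 of 10 libraries. The log2 difference was -4.91 ± 0.13 (SE; edgeR adjusted p = 3.1e-25), a 30.0-fold excess.

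The summed erythroid list was also higher in the pericentral zone. It was at 76.3 to 140 CPM in the pericentral zone and 63.9 to 94.4 CPM in the periportal zone, higher pericentrally in 10 of 10 libraries. Most of the 361 CPM of ZT18 replicate B therefore came from cells outside both zones. Of the genes in the list, Alas2 alone gave 3478 UMIs in all cells, or 80.2 CPM over all libraries. Outside ZT18 replicate B the whole list was at 72.2 to 108 CPM over all cells, so there the sum rested largely on Alas2. Zone levels were not taken for the other genes of the list separately, so the sum does not show a zone difference of erythroid RNA in general. The part of the list in the zone differences was not tested.

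**Figure D2:**
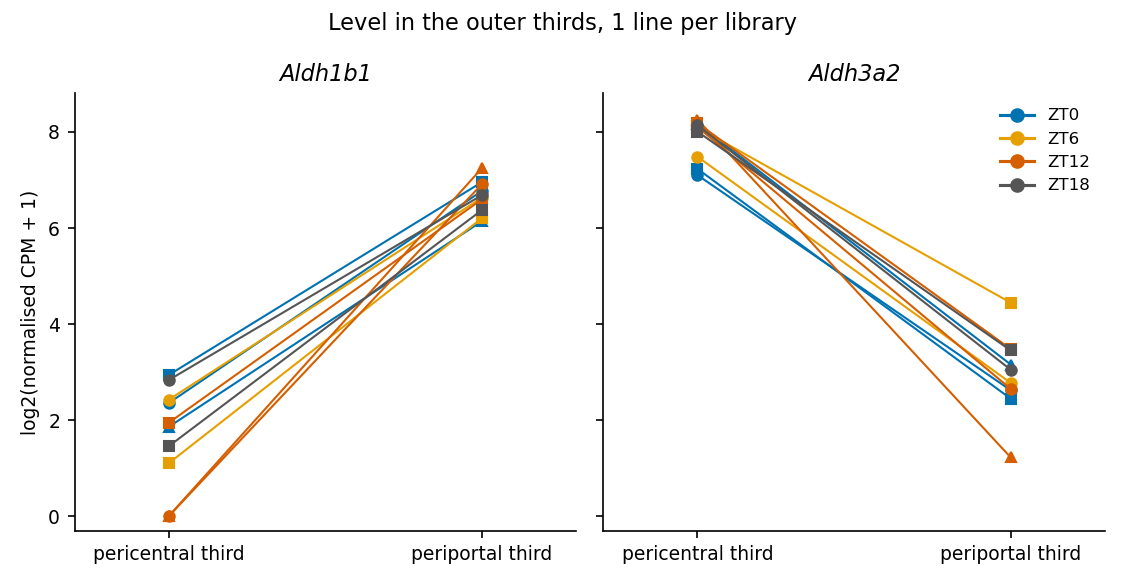
Level of Aldh1b1 (left) and Aldh3a2 (right) in the pericentral and periportal zones, as log2(normalised CPM + 1), with 1 line per library coloured by time and letters A, B and C as circles, squares and triangles. Every Aldh1b1 line rises and every Aldh3a2 line falls, and the ZT12 libraries at 0 pericentral UMIs of Aldh1b1 give its steepest lines.

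The folate and amino acid enzymes differed by far less. Aldh1l1, the cytosolic formyltetrahydrofolate dehydrogenase, was at 330, 428 and 621 CPM in the pericentral zone and at 404, 601 and 741 CPM in the periportal zone. Its log2 difference was 0.45 ± 0.06 (SE; edgeR adjusted p = 5.2e-07), periportal in 10 of 10 libraries. Aldh4a1, which turns pyrroline carboxylate from proline into glutamate, was at 179, 217 and 338 CPM against 134, 170 and 248 CPM, a difference of -0.37 ± 0.07 (SE; edgeR adjusted p = 5.6e-05). It was pericentral in 10 of 10 libraries. Aldh1l1 lies at chr6:90486427-90600203 and Aldh4a1 at chr4:139622866-139649690.

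Aldh6a1, the methylmalonate semialdehyde dehydrogenase of valine breakdown, was at 189, 226 and 427 CPM pericentrally and at 165, 220 and 389 CPM periportally. The difference of -0.23 ± 0.07 (SE; edgeR adjusted p = 0.012) was pericentral in 10 of 10 libraries, but in ZT0 replicates A and B and in both ZT18 libraries it was between -0.03 and -0.01. The call was lost when the second set of landmarks ordered the cells (-0.17, edgeR adjusted p = 0.076) and among cells with at least 3000 UMIs (-0.21, edgeR adjusted p = 0.17). Aldh6a1 lies at chr12:84430717-84451004.

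The remaining 3 members were not called. Aldh7a1, which acts in lysine breakdown and on betaine aldehyde, differed by 0.03 ± 0.06 (SE; edgeR adjusted p = 0.81), and by -0.07 when scaled by library size alone. Aldh9a1, which makes the butyrobetaine precursor of carnitine, differed by -0.05 ± 0.07 (SE; edgeR adjusted p = 0.68), with 5 libraries on each side. Aldh8a1, the aminomuconate semialdehyde dehydrogenase of the kynurenine pathway, differed by 0.14 ± 0.07 (SE; edgeR adjusted p = 0.12) and was periportal in 9 of 10 libraries. Aldh8a1 passed the threshold when genes whose mean was below 20 CPM were left out (0.16, edgeR adjusted p = 0.042) and without ZT0 replicate A (0.19, edgeR adjusted p = 0.043). Aldh8a1 lies at chr10:21377291-21396585 and Aldh9a1 at chr1:167349991-167368532.

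Splitting each library's cell order into 8 equal layers, from layer 1 at the pericentral end to layer 8 at the periportal end, showed where each change lay. Mean Aldh1b1 rose over each of the 7 steps, from 2.07 ± 2.06 CPM (SD, n = 10) in layer 1 to 132 ± 39.9 CPM in layer 8, and reached 17.96 ± 20.9 CPM in layer 4. Mean Aldh3a2 fell over each of the 7 steps, from 320 ± 73.4 CPM to 5.84 ± 5.76 CPM, and was at 70.7 ± 43.8 CPM in layer 4. Layers 1 and 2 held 68.1% of Aldh3a2 UMIs, and layers 7 and 8 held 68.8% of Aldh1b1 UMIs.

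Aldh1a1 fell over each of 7 steps too, from 1863 ± 501 CPM to 457 ± 116 CPM, and was highest in layer 1 in 10 of 10 libraries. Aldh2 fell over each of the 7 steps, from 1199 ± 368 CPM to 589 ± 156 CPM. Aldh1l1 had its lowest mean in layer 2, 435 CPM, and its highest in layer 8, 633 CPM. Aldh4a1 and Aldh6a1 had their highest mean in layer 1, 252 ± 72.1 CPM and 299 ± 96.6 CPM, and were close to level from layer 4 on, at 171 to 188 CPM and 217 to 237 CPM. Aldh7a1, Aldh8a1 and Aldh9a1 kept within a 1.09-fold, 1.24-fold and 1.15-fold range of layer means.

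**Figure D3:**
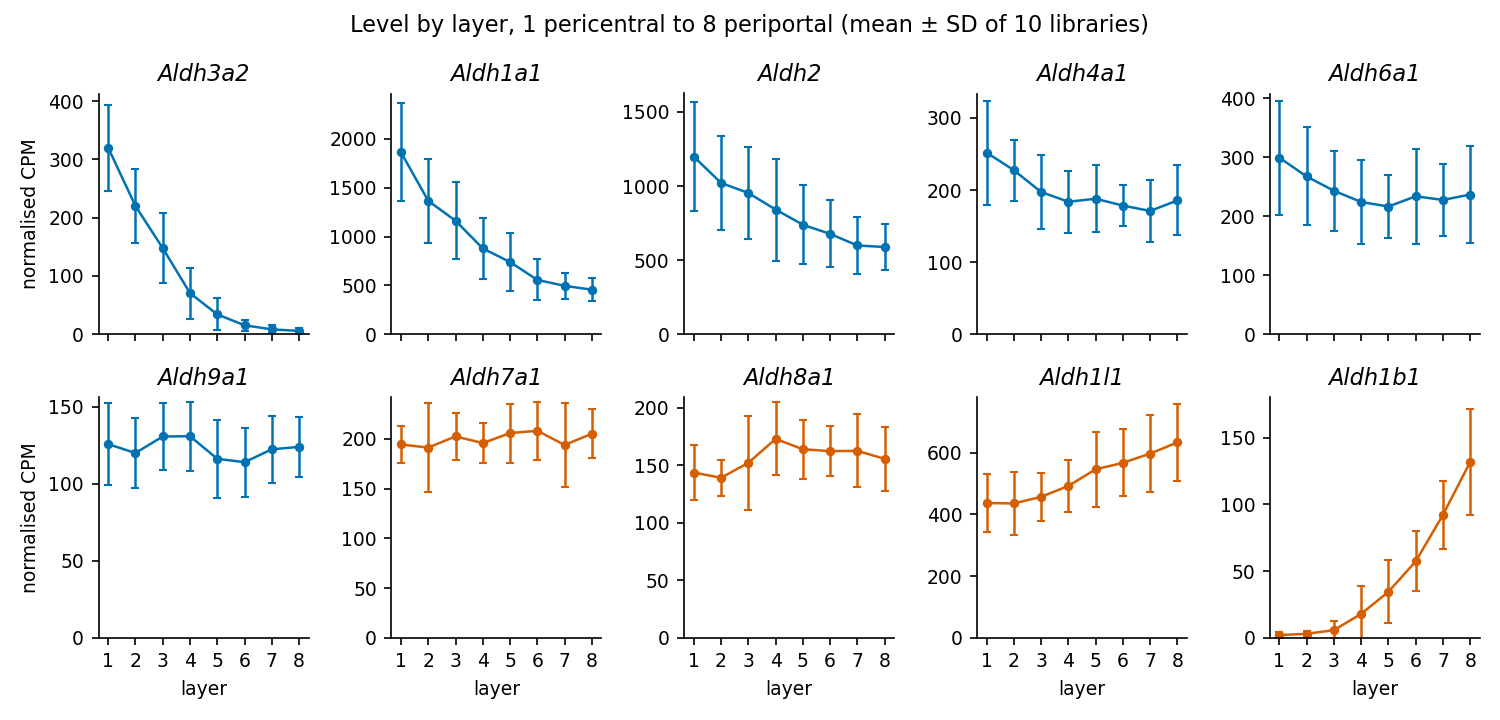
Mean level in normalised CPM (y axis, from 0, a separate scale for each gene) in 8 layers from pericentral (1) to periportal (8), with bars of 1 SD over 10 libraries. Blue genes had a negative fitted zone difference and orange genes a positive one, including 3 that were not called. Aldh3a2 falls from 320 to 5.84 CPM and Aldh1b1 rises from 2.07 to 132 CPM, while Aldh7a1, Aldh8a1 and Aldh9a1 stay nearly flat.

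Shares of cells with a UMI restate these levels for genes as sparse as Aldh1b1 and are given as a description. After each cell was thinned to 1000 UMIs, so that depth was equal, an Aldh1b1 UMI was present in 7.92 ± 2.41% of periportal cells (SD over 10 libraries) and 0.291 ± 0.320% of pericentral cells. For Aldh3a2 it was 0.806 ± 0.552% and 20.9 ± 5.84%. Without thinning these shares were 16.9% and 0.715% for Aldh1b1, and 1.74% and 38.8% for Aldh3a2, with median depths of 1578 to 2762 UMIs in periportal and 1539 to 3034 UMIs in pericentral cells of the libraries. No background level was measured separately, so a low share in a zone is not taken as absence of the gene there. Aldh1a1 had a UMI in 74.4 ± 10.7% of thinned pericentral and 36.6 ± 6.84% of periportal cells, and Aldh2 in 65.2 ± 12.8% and 43.4 ± 11.6%.

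Aldh1b1 and Aldh3a2 seldom met in one cell. In thinned cells an Aldh3a2 UMI was present in 1.39 ± 2.46% of cells with an Aldh1b1 UMI and in 9.29 ± 2.93% of the other cells (SD, n = 10 libraries). Cells with both made up 0.039 ± 0.050% of a library, where the product of both shares would be 0.312 ± 0.132%. Unthinned, the shares were 3.62% and 18.2%. The zones of this pair are opposite, and no test was made over cells.

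Summed over the 10 members, the family was at 4260 ± 746 CPM in the pericentral zone and 2702 ± 328 CPM in the periportal zone (SD, n = 10), higher pericentrally in 10 of 10 libraries. Aldh1a1 gave 35.6 ± 7.70% of the pericentral sum and 18.2 ± 4.98% of the periportal sum. Aldh1l1 gave 10.5 ± 2.02% and 22.2 ± 2.51%, and Aldh2 25.1 ± 5.46% and 22.1 ± 4.52%. Aldh1b1 gave 0.0755 ± 0.0612% and 3.82 ± 0.896%. Counts from 3' ends depend on each gene's own transcripts, so these shares describe tagged molecules and not enzyme amounts.

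The zone pattern was then taken at each time separately. At ZT0 6 members were called, namely Aldh1a1, Aldh1b1, Aldh1l1, Aldh2, Aldh3a2 and Aldh4a1, where 12.9% of all genes were. At ZT6 the call of Aldh1l1 was absent, leaving 5, against 6.72% of all genes. At ZT12 the 6 members of ZT0 were called, against 9.75%, and at ZT18 5 were, Aldh4a1 being absent, against 6.28%. Some of the smaller calls were lost when a library was left out. Where 1 library of a time was left, it was taken to vary like those of the other times. Aldh4a1 was not called at ZT0 without replicate A or C (-0.34 and -0.32), at ZT6 without A or B (-0.66 and -0.59), or at ZT12 without A, B or C (-0.32, -0.48 and -0.38). Aldh1l1 was not called at ZT12 without replicate A (0.36) or at ZT18 without A or B (0.61 and 0.52), and Aldh6a1 was called at ZT6 without ZT0 replicate C (-0.41). Under library size alone the periportal share of all calls moved from 48.0% to 30.5% for ZT0, from 50.2% to 36.6% for ZT6, from 47.3% to 33.0% for ZT12 and from 40.3% to 29.8% for ZT18.

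Aldh1b1 had log2 zone differences of 4.44 ± 0.22, 4.73 ± 0.35, 5.82 ± 0.31 and 4.57 ± 0.36 (SE) at ZT0, ZT6, ZT12 and ZT18. Those of Aldh3a2 were -5.00 ± 0.21, -4.25 ± 0.25, -5.28 ± 0.23 and -4.94 ± 0.27. Both were past the threshold at each of the 4 times. The ZT12 value of Aldh1b1 rests on 7 pericentral UMIs, all from replicate B, so that no fold can be given without that library. Its SE at ZT12 may therefore be too small. Aldh3a2 at ZT12 was -6.54 without replicate B and -4.97 without replicate C. Aldh2 differed by -0.66 ± 0.10, -0.73 ± 0.13, -1.001 ± 0.11 and -0.92 ± 0.13 in the order ZT0, ZT6, ZT12, ZT18. In single libraries, on the log2(CPM + 1) scale, Aldh2 was between -0.67 and -0.65 at ZT0 and between -1.11 and -0.88 at ZT12. These times did not overlap, nor did ZT6 (-0.64 to -0.58) and ZT18 (-0.22 to -0.01) for Aldh4a1. Such gaps were not counted over all genes. They arise readily with 2 or 3 libraries per time, so they are no result about the members.

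Whether a zone difference itself followed the time of day was tested as a zone-dependent rhythm with 2 degrees of freedom. None of the 10 members was called by edgeR, and neither DESeq2 nor limma-voom called any. Of all genes, 2 of 8929 (0.0224%) were called, and 559 had an unadjusted p under 0.05. Among members Aldh2 alone had an unadjusted p under 0.05 (0.045, edgeR adjusted p = 0.79, log2 amplitude 0.20). Aldh1b1 had the largest amplitude of the zone difference, 0.59 (edgeR adjusted p = 0.87). With the letters as a block 41 genes were called, none of them a member.

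Over all cells of a library no member was called for time of day. For a 24-h rhythm 0 of 10 members were called by edgeR, against 5.14% of 8908 genes, and 0 by DESeq2 and limma-voom. None of the 10 had an unadjusted p under 0.05, which 1816 of all genes had. The amplitudes, as log2 distance from mean to peak, were 0.02 to 0.28 in the members with a median of 0.12, and the median over all genes was 0.25. An amplitude cannot fall below 0 and grows with noise. Genes down to 3 CPM enter the second median, while members had means of 44.0 to 950 CPM, so these medians are not like for like. The lowest p was that of Aldh3a2, with an amplitude of 0.28, a 1.47-fold range from peak to trough (edgeR adjusted p = 0.54). With the letters as a block 749 genes were called, none of them a member, and without both ZT18 libraries 231 genes and no member.

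ZT12 compared with ZT0 also gave 0 of 10 members by edgeR, DESeq2 and limma-voom, and none at an unadjusted p under 0.05. Of all genes 3.44% were called, 1.74% being higher at ZT12 and 1.70% lower, and an unadjusted p under 0.05 was seen for 1385. Under library size alone 66.7% of all calls were higher at ZT12, against 50.7%. ZT18 compared with ZT6 gave 0 of 10 by edgeR, DESeq2 and limma-voom and none at an unadjusted p under 0.05, against 3.79% of all genes, 2.35% higher and 1.45% lower, and 1744 genes at an unadjusted p under 0.05. SEs of the members were 0.18 to 0.34 in the first comparison and 0.22 to 0.42 in the second. A change had to be several times its SE to pass the threshold, so changes well above these errors could have been missed. With the letters as a block 504 and 730 genes were called, none of them a member.

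Aldh3a2 had the largest difference between ZT0 and ZT12 among the members. At ZT0 replicates A, B and C were at 51.7, 63.1 and 144 CPM, at ZT12 at 124, 120 and 132 CPM, at ZT6 replicates A and B at 80.8 and 133 CPM, and at ZT18 at 96.5 and 101 CPM. ZT0 replicate C lay above each ZT12 library, and the other two ZT0 libraries lay below them. The log2 difference, ZT12 minus ZT0, was 0.54 ± 0.32 (SE; edgeR adjusted p = 0.45), and 1.12 without ZT0 replicate C (edgeR adjusted p = 0.020). No other left-out library changed a call of a member in this comparison, where values for Aldh3a2 were from 0.28 to 0.56.

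Aldh2 differed more between letters than between times. At ZT0 replicates A, B and C were at 505, 790 and 1241 CPM, and at ZT12 at 552, 805 and 1312 CPM. Libraries of 1 letter at ZT0 and ZT12 were thus close to each other and the letters kept their order. At ZT6 replicates A and B were at 793 and 919 CPM and at ZT18 at 692 and 681 CPM, inside the range of the other times. The letters of ZT0 and ZT12 share a column of the 10x index plate, and whether they share a day or a mouse is not given in the labels.

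Aldh6a1 had 255, 221 and 306 CPM in replicates A, B and C at ZT0, 191 and 185 CPM in A and B at ZT6, 409, 188 and 320 CPM at ZT12, and 206 and 182 CPM at ZT18. ZT12 alone spanned more than the other 3 times together. Aldh1b1 had 52.9, 51.3 and 22.3 CPM at ZT0, 39.5 and 29.6 at ZT6, 47.7, 43.7 and 54.5 at ZT12, and 60.5 and 38.5 at ZT18. Its ZT0 libraries alone covered most of the range. Times next to each other by mean overlapped, while both ZT6 libraries of Aldh1b1 lay below each ZT12 library. Gaps of this kind were not counted over all genes. Aldh1b1 at ZT18 minus ZT6 was 0.50 ± 0.36 on the log2 scale (SE; edgeR adjusted p = 0.48).

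When the 4 times were ranked by mean, 30 pairs of neighbours resulted over the 10 members, and in 5 of them the libraries did not overlap. These were ZT12 above ZT6 for Aldh4a1, ZT0 above ZT18 for Aldh6a1, ZT6 above ZT18 for Aldh7a1, ZT18 above ZT6 for Aldh8a1 and ZT18 above ZT12 for Aldh9a1. The same count over all genes was not made. With 2 or 3 libraries per time and pairs set by rank, gaps arise readily without a change, so these pairs are no result about the members. For Aldh8a1 both ZT18 libraries, at 179 and 182 CPM, were above the other 8, whose highest was 174 CPM. Its log2 difference, ZT18 minus ZT6, was 0.23 ± 0.23 (SE; edgeR adjusted p = 0.63). Over all libraries the family sum was 3564 ± 861 CPM at ZT0 and 3596 ± 617 CPM at ZT12 (SD, n = 3), and 3201 ± 398 CPM at ZT6 and 2920 ± 110 CPM at ZT18 (SD, n = 2).

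**Figure D4:**
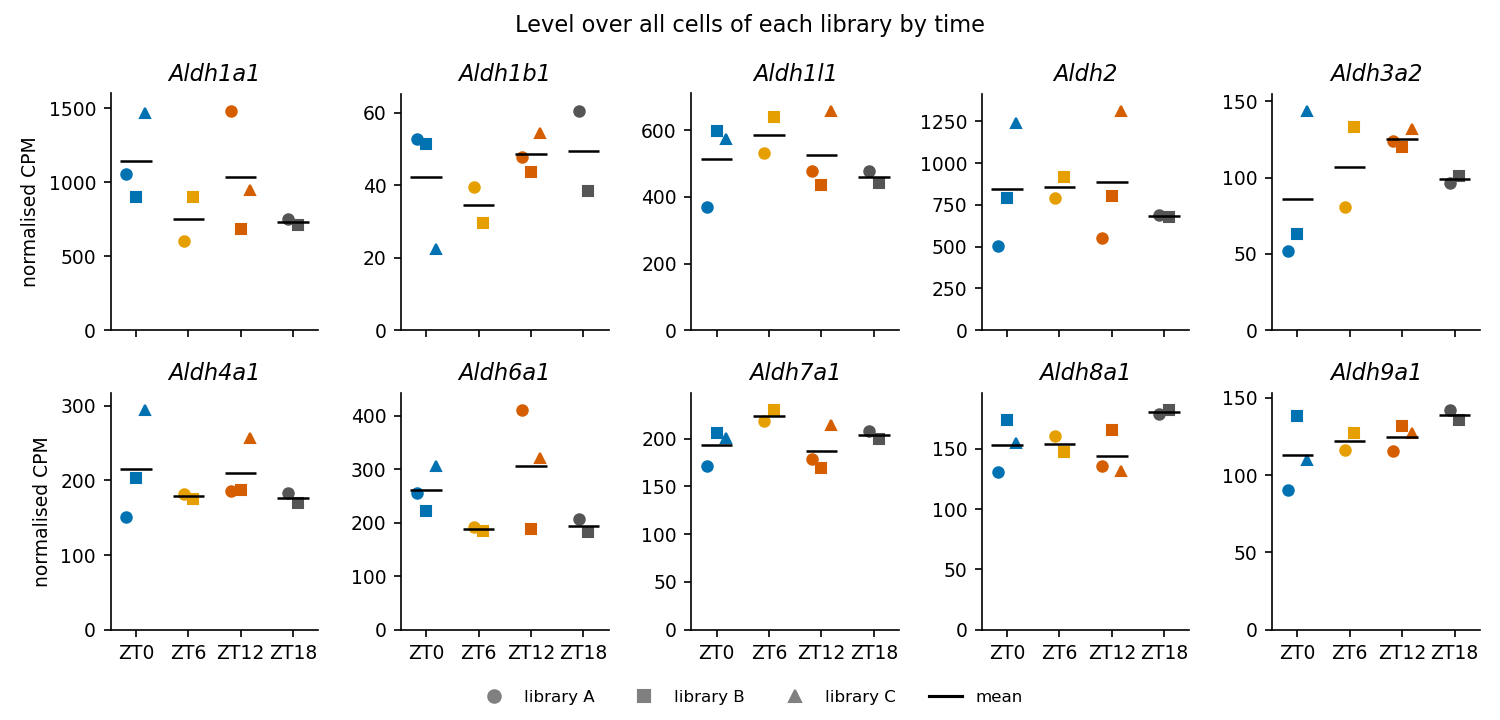
Level over all cells in normalised CPM (y axis, from 0, a separate scale for each gene) at 4 zeitgeber times, 1 point per library with the letter as its shape, and a line at the mean. The spread inside a time is as wide as that between times for most members, as for Aldh2 at ZT0, from 505 to 1241 CPM.

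Of 11 other family genes listed, 7 had a row and 3 passed the filter of 3 CPM. None of these 3 was called for zone or rhythm by edgeR, DESeq2 or limma-voom, or had an unadjusted p under 0.05 by edgeR. Of all genes edgeR called 24.8% for zone and 5.14% for rhythm, so 0 of 3 says little. Aldh1a7 lies 49.5 kb from Aldh1a1 and is a close relative of it, so reads of the pair may be split uncertainly between them. It was at 94.1, 147 and 183 CPM (lowest, median, highest of 10 libraries) in the pericentral zone and at 112, 135 and 167 CPM in the periportal zone, a difference of -0.03 ± 0.07 (SE; edgeR adjusted p = 0.85), beside -1.62 for Aldh1a1. Aldh16a1 differed by 0.27 ± 0.13 (SE; edgeR adjusted p = 0.15) and Aldh5a1, the succinate semialdehyde dehydrogenase, by 0.05 ± 0.11 (SE; edgeR adjusted p = 0.79). The other 4 were too sparse to test, with 39 UMIs of Aldh1a3, 37 of Aldh3b1, 9 of Aldh18a1 and 4 of Aldh3b3 in all libraries.

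Genes that act beside the members in their pathways were read from lists, leaving out the landmark genes. Around Aldh1a1, 8 of 13 retinoid genes tested were called for zone, 4 in each direction, where 24.8% of all genes were called. Rdh16, a retinol dehydrogenase, was pericentral like Aldh1a1 (-1.77 ± 0.11, SE), as was Cyp26a1, which degrades retinoic acid (-0.70 ± 0.19). Bco1, which cleaves carotene to retinal, and the retinol dehydrogenase Rdh5 were periportal (1.31 ± 0.25 and 0.86 ± 0.18). Around Aldh2, 1 of 7 ethanol and acetaldehyde genes was called, the aldehyde reductase Akr1a1 (-0.32 ± 0.06).

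Around Aldh4a1, 6 of 10 genes of proline and hydroxyproline were called by edgeR, 4 periportal and 2 pericentral, against 24.8% of all genes. DESeq2 called 4 of them, and 1608 of all genes where edgeR called 2212. Prodh, which supplies the substrate of Aldh4a1, was pericentral like it (-0.88 ± 0.08), as was Glud1, which acts on its product glutamate (-0.24 ± 0.06). Got1 and Agxt, aminotransferases, were periportal (1.04 ± 0.08 and 0.63 ± 0.07). Around Aldh6a1, 4 of 19 genes of branched-chain amino acids were called by edgeR, a share no higher than its 24.8% of all genes. DESeq2 called 3. All 4 were pericentral, among them Hibadh, which makes the substrate of Aldh6a1's step (-0.54 ± 0.07).

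Around Aldh7a1, 5 of 11 genes of lysine and choline were called by edgeR, 3 periportal and 2 pericentral, against 24.8% of all genes. DESeq2 called 4, and 1608 of all genes. Aass, the first enzyme of lysine breakdown, and the glycine methyltransferase Gnmt were periportal (0.31 ± 0.07 and 0.56 ± 0.06), and Aadat and Gcdh, later enzymes of lysine breakdown, were pericentral (-0.40 ± 0.09 and -0.30 ± 0.06). Around Aldh8a1, 5 of 7 kynurenine genes were called and all were periportal, among them Acmsd (0.90 ± 0.16), which makes the substrate of Aldh8a1, and Qprt (0.51 ± 0.09), on the branch to NAD+. Aldh8a1 itself was not called.

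None of the 10 folate genes tested around Aldh1l1 was called for zone by edgeR, DESeq2 or limma-voom, and 2 had an unadjusted p under 0.05 by edgeR. Against the same 24.8% of all genes, in the carnitine list around Aldh9a1, 2 of 4 were called and both were pericentral, Crat (-0.88 ± 0.15) and Bbox1, the last enzyme of carnitine synthesis (-0.38 ± 0.07). Around Aldh3a2, 3 of 8 genes of fatty aldehydes and phytol were called. Sgpl1, which releases a long-chain aldehyde from sphingosine phosphate, was periportal (0.63 ± 0.09), and Phyh and Hao1 were pericentral (-0.50 ± 0.06 and -0.23 ± 0.07). No called gene of these lists changed sign when scaled by library size alone. The counts periportal and pericentral became 0 and 3 for ethanol, 4 and 6 for retinoid, and 1 and 3 for fatty aldehydes. They became 2 and 2 for proline, 0 and 8 for valine, 2 and 4 for lysine, and 0 and 2 for folate. Under that scaling 2481 of all 8929 genes were called, against 2212 with TMM. The median of all genes moved to -0.10 as well, so the shifted counts are no result about the lists. Median zone differences of the lists ran from -0.14 for carnitine to 0.44 for kynurenine, and the median over all genes was -0.0039.

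**Figure D5:**
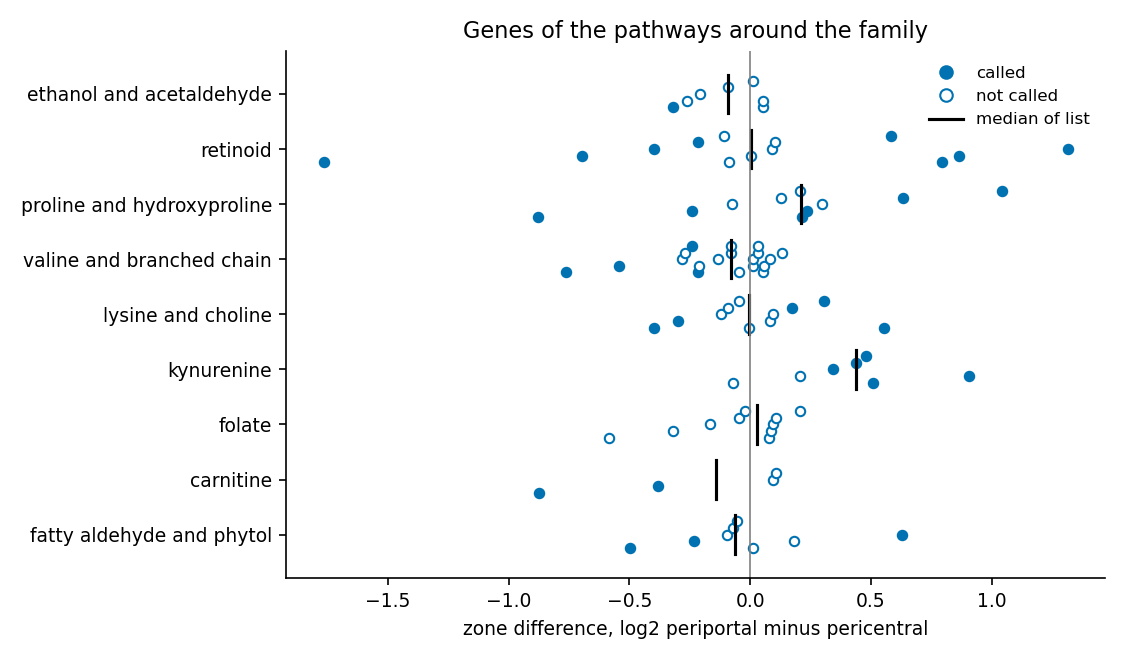
Zone difference (x axis, log2 periportal minus pericentral) of the tested genes in 9 pathway lists (y axis), without landmark genes. Filled points were called, open points were not, and a black line marks the median of each list, which is 0.44 for the kynurenine genes and -0.0039 over all genes.

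Some genes of these lists were called for a 24-h rhythm. Among them, with their log2 amplitudes, were Acmsd (0.96), Cpt1a of carnitine shuttling (0.83), Hacl1 of phytol breakdown (0.77), Agxt (0.72), and the retinoid genes Dhrs3 (0.67) and Stra6l (0.61). Against 5.14% of all genes, 3 of 13 retinoid genes were called for a rhythm, 1 of 10 for proline, 1 of 7 for kynurenine, 1 of 4 for carnitine and 1 of 8 for fatty aldehydes by edgeR. The ethanol, valine and lysine lists had 0 of 8, 0 of 19 and 0 of 11 by edgeR and limma-voom. At an unadjusted p under 0.05 they had 2, 5 and 3 genes by edgeR. DESeq2 called 1, 4 and 1 in these lists, and 792 of all genes where edgeR called 458.

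Profiles over 80 points, 10 libraries by 8 layers with each library centred, were compared by Pearson r with 4317 other genes of at least 20 CPM. The points of a library share its cells and depth, so r is a description. Aldh1b1 was most like Sds (r = 0.95), the serine dehydratase of gluconeogenic liver, Hsd17b6 (0.94) and Mup20 (0.94). Aldh3a2 was most like Cyp2c29 (0.97), Cyp2c54 (0.96) and the organic anion transporter Slco1b2 (0.95). Aldh1a1 was most like Slco1b2 (0.98), Acaa1b (0.97) and Cyp2c37 (0.97), and Aldh2 most like Akr1c6 (0.95), Acaa1b (0.95) and Aldh1a1 (0.95). Aldh1l1 was nearest to Hsd17b6 (0.88), C3 (0.87) and Sds (0.87). The nearest of Aldh4a1 and Aldh6a1 were looser, with 4931406C07Rik (0.76) and Cyp4a12a (0.73) for the former, and Cyp4a12b (0.74), Glud1 (0.68) and Acsl1 (0.68) for the latter.

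Between members, Aldh1b1 and Aldh3a2 ran against each other with r = -0.94 over these 80 points, and Aldh1a1 and Aldh2 ran together with r = 0.95. Aldh7a1 stayed between -0.19 and 0.21 with each of the other 9, and Aldh9a1 between -0.16 and 0.19.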

How the data were processed

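Whole-number UMI counts per gene and cell were deposited as 1 table per library, with symbols in lower case and cells under running numbers, so shared barcodes could not be counted. The submitters' processing notes name Cell Ranger, mm10 and hg19, without version or role, and no further step or filter is given in the sources used here. Counts were summed over cells for each library, and for the 1 in 3 of its cells at each end of the landmark score. They were scaled by TMM and tested with edgeR 4.0.16 (quasi-likelihood F-test, R 4.3.3, a filter of mean CPM 3 or more, Benjamini-Hochberg over all genes tested, threshold 0.05). A gene called is one past that threshold. Rhythm was a cosine and a sine of 24 h, ZT12 against ZT0 and ZT18 against ZT6 came from a model with 1 mean per time, and zone tests had the library as a block. Levels are TMM-scaled CPM, marker sums plain CPM, and zone differences of single libraries use log2(CPM + 1), which understates low genes. DESeq2 1.42.0, limma-voom 3.58.1, other scalings, filters, landmarks and left-out libraries were alternatives. The procedure was tested on simulated data.

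The members and gene lists were chosen with earlier results of these data known, including the zone differences of Aldh1b1 and Aldh3a2. Named genes are the members, other family genes with a UMI, the 2 largest called zone differences in each direction (in at least 9 of 10 libraries) and the 2 largest called rhythms of each list, and the 3 genes most like each zoned member; some genes this rule names are not reported here. Replicate libraries differed by more than counting noise, with a chi-square per degree of freedom of 4.37 to 50.6. Doublets were not called, and an alternative removed the deepest 5% of cells. 3 UMIs in a library amount to 0.420 to 2.06 CPM, which covers counting error only. Libraries of one letter deviated together between ZT0 and ZT12 (r across genes of 0.27, 0.51 and 0.63 for A, B and C), where letters also share a column of the index plate. What the letters mark is not given, so the main tests of time used no letter block, and letters as a block were an alternative. Libraries of one letter at ZT6 and ZT18 correlated at 0.12. Of the gene rows, 14320 matched a symbol of GENCODE M21. Coordinates are of GRCm38, which mm10 also denotes, and promoters are from RefSeq. Protein sequences were not used here.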

Additional observations from a re-analysis of the deposited data

Results flagged for a closer look

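In ZT12 replicate C the zone difference of Aldh3a2 was -7.03 on the log2(CPM + 1) scale, farther from its nearest neighbour among the 10 libraries, relative to their whole range, than Dixon's 95% critical value allows (ratio of 0.4663, just past that value). It rests on 1 UMI in the periportal zone. The zone differences of 10 members were checked, and chance marks about 1 in 20 such groups. Without that library the fitted zone difference of Aldh3a2 was -4.81.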

How the results depend on the processing

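Of 2050 member values under alternatives (24 for zone, 20 for rhythm), 2024 kept their side of the threshold, 20 called values were no longer called, 6 were newly called and 0 called values changed direction. Values that were not called did in part change sign, such as Aldh7a1 for zone (0.03 to -0.07 with library size alone) and, for ZT12 against ZT0, Aldh1b1 (0.20 to -0.11 without ZT0 replicate C) and Aldh2 (0.07 to -0.32 without ZT12 replicate C). Members called for ZT12 against ZT0 ranged from 0 to 1 when single libraries were left out, the 1 being Aldh3a2 without ZT0 replicate C, and were 0 under the other alternatives. For zone they ranged from 6 to 8. With the letters as a replicate block, 0 members were called for rhythm, ZT12 against ZT0 and ZT18 against ZT6, and no member call changed, while all genes called rose to 749, 504 and 730. In cells of at least 3000 UMIs the calls of Aldh4a1 at ZT6 and ZT12, Aldh1l1 at ZT12 and Aldh2 at ZT18 were lost, and DESeq2 lost Aldh4a1 at ZT0 and ZT12. Aldh4a1 at ZT12 was also lost without the deepest 5% of cells (-0.32) and with the second landmark set (-0.25). Zones cut over all libraries together added Aldh1l1 at ZT6, and library size alone added Aldh6a1 there. All genes called for rhythm were 458, against 792 with DESeq2, 710 with no filter, 283 at 20 CPM, 231 without ZT18, and 272, 302, 228 and 249 without ZT6 replicate B, ZT12 B, ZT18 A and ZT18 B. For ZT12 against ZT0 they were 306, against 469 with no filter. For ZT18 against ZT6 they were 338, against 595 with no filter, 199 at 20 CPM, and 50, 60, 80 and 66 without ZT6 replicate A, ZT6 B, ZT18 A and ZT18 B. For zone they were 2212, against 1218 in cells of at least 3000 UMIs. By time, from ZT0 to ZT18 (1152, 600, 871 and 561), they were 519, 306, 507 and 280 with DESeq2, and 221, 391 and 125 at the last 3 times in deep cells. Leaving out ZT0 replicate C gave 764 for ZT0, ZT6 replicate A or B 203 or 255 for ZT6, ZT12 replicate C 570 for ZT12, and ZT18 replicate A or B 137 or 175 for ZT18. The zone-dependent rhythm gave 0 to 43 against 2. Unthinned, the zone gap in the share of cells with a UMI was 16.2 percentage points for Aldh1b1 and -37.1 for Aldh3a2. The cause of these shifts was not tested. Depth limits Aldh1b1 in the pericentral and Aldh3a2 in the periportal zone.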
